A study of Drosophila melanogaster with 24 samples.

Results

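The genes described here are the 32 small nuclear RNA (snRNA) genes on the main arms of the Drosophila genome, chosen by a symbol that starts with snRNA: in the RefSeq annotation of Release 6 (dm6), out of 17684 annotated genes of all kinds on those arms. Each was marked for a peak of Isha, Su(Hw), CP190 or Mod(mdg4)67.2 within 500 bp of its body. The binding maps come from Kc167 cells, a female cell line of embryonic origin, profiled by chromatin immunoprecipitation and sequencing. Cells of the IshaKD group were transfected with 12 µg of dsRNA (double-stranded RNA) that targets Isha and kept for 5 days, and the mock group served as control. Immunoprecipitation used rabbit antisera against Isha, CP190 and Mod(mdg4)67.2 and a guinea pig antiserum against Su(Hw). The Isha replicates carry different antiserum names, Rb95 and Rb96. The design asks how far Isha sites coincide with those of the insulator proteins and whether the binding of these proteins needs Isha.

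The snRNAs are short, stable, non-coding RNAs. U1, U2, U4, U5 and U6 are the RNA cores of the major spliceosome: U1 pairs with the 5′ splice site, U2 with the branch point, U5 aligns the exons, and U4 delivers U6, which takes part in catalysis. U11, U12, U4atac and U6atac do the same work in the minor spliceosome, which removes a rare class of introns. The annotation rule also takes in RNAs that are not spliceosomal, namely U7, which guides the 3′ end processing of histone mRNAs, the 7SK RNAs, which hold the elongation factor P-TEFb in an inactive state, and LU, whose role is left unnamed here. So the label spliceosomal fits 28 of the 32 genes. U6, U6atac and 7SK are made by RNA polymerase III and the other named classes by RNA polymerase II, from promoters that share a proximal sequence element. Su(Hw) is the zinc finger protein of gypsy-type insulators, CP190 and Mod(mdg4)67.2 are its partners, and Isha, by the series title, binds the mRNA of su(Hw).

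The deposited data used here are 8 peak lists in dm6 coordinates, 1 per antibody and treatment. They came from 16 immunoprecipitate libraries, 2 replicates in each group, beside 8 input libraries. On the main arms the Isha list held 932 peaks in IshaKD cells and 4735 in mock cells, and that of Su(Hw) 4711 in IshaKD cells and 4900 in mock cells. CP190 had 8880 peaks in IshaKD cells and 8193 in mock cells, and Mod(mdg4) had 1091 in IshaKD cells and 1305 in mock cells. The Isha list, which checks the targeted protein, was thus the shorter of its pair after knockdown. The lists hold no score and no replicate column. No difference between IshaKD and mock therefore has a replicate check or a p-value, and a peak absent from a list may be one that fell below the threshold of the authors. Intervals are 95% Wilson intervals for counting error only. They treat genes as independent, which neighbouring snRNA genes under 1 peak are not.

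The snRNA genes formed 21 clusters when genes within 5000 bp of each other were joined, 7 of them with more than 1 gene (18 genes) and 14 single genes. They fell on X (2 genes), 2L (16), 3L (4) and 3R (10). Gene length ran from 71 bp for U7 to 444 bp for 7SKa. By position, 16 lay inside a protein-coding gene, 9 lay outside but within 500 bp of one, and 7 lay farther away. The largest cluster, 5 genes over 5807 bp at 38AB, sits inside the gene sick.

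Su(Hw) lay at a larger share of the snRNA genes than of all genes, CP190 at a share near that of all genes, and Isha at few. Su(Hw) peaks lay within 500 bp of 14 snRNA genes in IshaKD cells (43.8%, interval 28.2 to 60.7%) and of 16 in mock cells (50%, 33.6 to 66.4%). Among all genes the share was 17.1% in IshaKD cells and 18.6% in mock cells. Mod(mdg4) lay at 5 snRNA genes in IshaKD cells (15.6%, 6.86 to 31.8%) and at 6 in mock cells (18.8%, 8.89 to 35.3%), against 5.84% of all genes in IshaKD cells and 6.33% in mock cells. CP190 lay at 19 snRNA genes in each treatment (59.4%, 42.3 to 74.5%), close to the 53.3% of all genes in IshaKD cells and 51.9% in mock cells. Isha lay at none of the 32 in IshaKD cells, where a count of 0 allows a share of up to 9.38% by the rule of 3 counts in 32 genes and 10.7% by the Wilson interval, and at 2 in mock cells (6.25%, 1.73 to 20.1%). Over all genes the Isha share was 11.3% in IshaKD cells and 41.2% in mock cells.

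**Figure D1:**
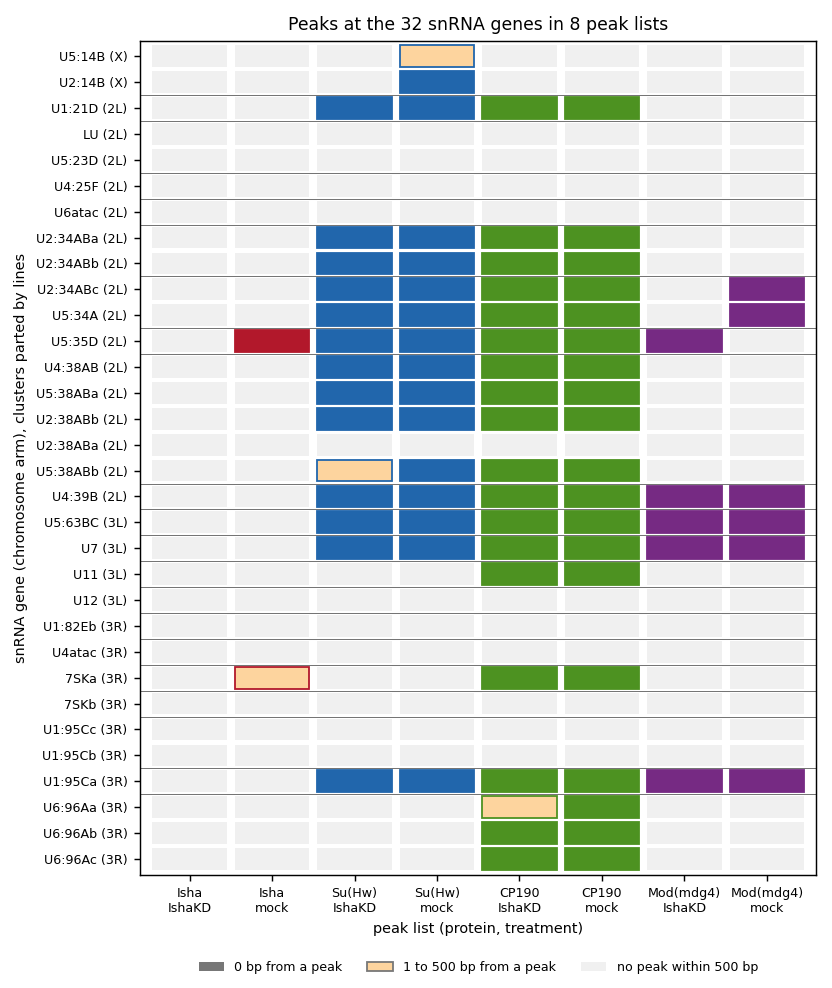
Peaks at each of the 32 snRNA genes (rows, with the chromosome arm) in the 8 peak lists (columns, IshaKD left of mock for each protein); a filled cell marks a peak that reaches the gene, a pale outlined cell a peak 1 to 500 bp away, and thin lines part the clusters. Marked genes number 14 for IshaKD and 16 for mock Su(Hw), 19 for each CP190 list, 5 for IshaKD and 6 for mock Mod(mdg4), and 0 for IshaKD and 2 for mock Isha.

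Because snRNA genes are short, a window of fixed size takes in less sequence around them than around most genes, so they were also set beside other short RNA genes. In IshaKD cells Su(Hw) lay at 43.8% of the snRNA genes, against 8.97% of 290 transfer RNA (tRNA) genes, 8.18% of 269 small nucleolar RNA (snoRNA) genes and 8.75% of the 1223 genes of at most 300 bp. In mock cells the shares were 50% for snRNA genes, against 12.8% for tRNA genes, 7.43% for snoRNA genes and 10.8% for the short genes. The counting intervals of the snRNA genes did not overlap those of these 3 sets in either treatment, but such intervals treat genes as independent. The snRNA counts rest on 12 Su(Hw) peaks in each treatment, in 9 clusters in IshaKD cells and 10 in mock cells. The set of short genes includes the snRNA genes of that length. For CP190 the snRNA share of 59.4% in each treatment stood above the short genes, at 31.6% in IshaKD cells and 31.2% in mock cells, and near the protein-coding genes, at 59.6% in IshaKD cells and 57.8% in mock cells. Mock Isha was as rare at tRNA genes (6.21%) as at snRNA genes (6.25%), while it lay at 49.8% of snoRNA genes and 18.6% of the short genes. The snRNA interval, 1.73 to 20.1%, takes in the share of the short genes. In IshaKD cells Isha lay at 0.69% of tRNA genes, 5.2% of snoRNA genes and 2.86% of the short genes, beside 0 of 32 snRNA genes. No test was made of these differences between gene sets.

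**Figure D2:**
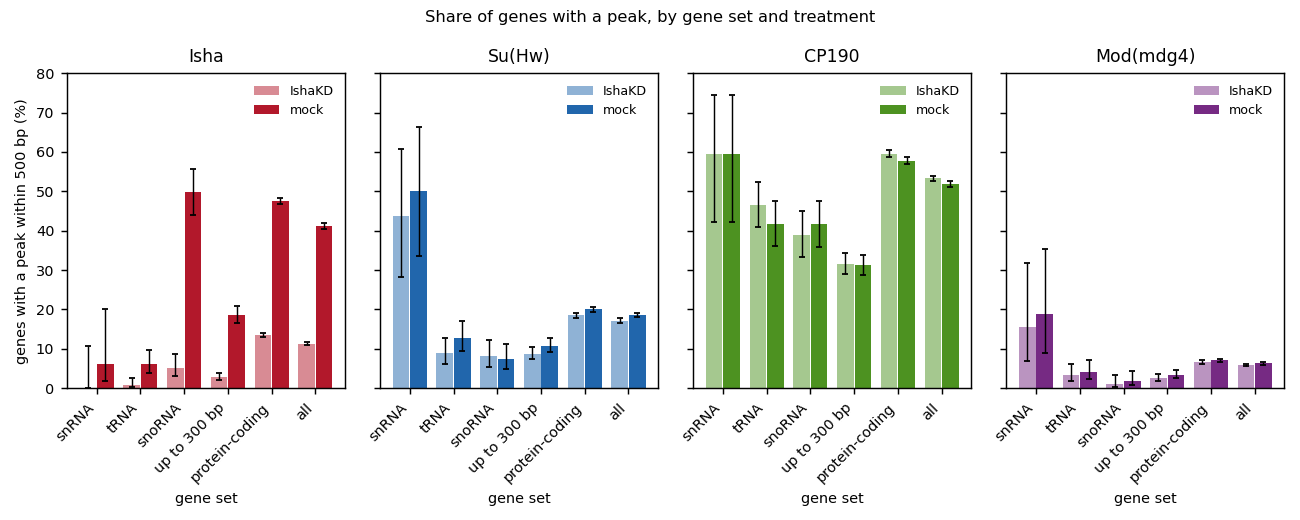
Percent of genes with a peak within 500 bp (y axis) in 6 gene sets (x axis) for each protein, with pale bars for IshaKD and dark bars for mock; error bars are 95% Wilson intervals for counting error. For Su(Hw) the snRNA bars, 43.8% in IshaKD and 50% in mock cells, stand above every other set shown, while for mock Isha the snRNA bar at 6.25% lies near the tRNA bar at 6.21%.

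At most snRNA genes with CP190 the partner was Su(Hw) and not Isha. Of the 19 snRNA genes with CP190, 14 also had Su(Hw) in each treatment (73.7%), against 29% of all genes with CP190 in IshaKD cells and 32.6% in mock cells. Among genes of at most 300 bp the same share was 24.3% in IshaKD cells and 28.5% in mock cells. Of these 19, none had Isha in IshaKD cells and 2 had it in mock cells (10.5%), against 19.2% of all CP190 genes in IshaKD cells and 64.7% in mock cells. In the other direction Su(Hw) was joined by CP190 at 14 of 14 snRNA genes in IshaKD cells and at 14 of 16 in mock cells (87.5%). Over all genes with Su(Hw) that share was 90.3% in IshaKD cells and 90.9% in mock cells. Every snRNA gene with Mod(mdg4) had Su(Hw) and CP190 as well, 5 genes in IshaKD cells and 6 in mock cells. Over all genes with Mod(mdg4), 99.5% had Su(Hw) in IshaKD cells and 98.8% in mock cells, close to the share at the snRNA genes.

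Split by RNA class, Su(Hw) was found at the U1, U2, U4, U5 and U7 genes only. All of its marked genes were of the RNA polymerase II classes: 14 of 25 in IshaKD cells and 16 of 25 in mock cells, against 0 of 6 polymerase III genes in each treatment. CP190 was found in both kinds, at 15 of 25 polymerase II genes and 4 of 6 polymerase III genes in each treatment. The 6 polymerase III genes lie in 4 clusters, so these counts rest on few places. Su(Hw) lay at 17.1% of all genes in IshaKD cells and 18.6% in mock cells. So few genes cannot tell a count of 0 from shares of that size. The difference between the kinds was not tested.

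Among U5 genes, Su(Hw) lay at 5 of 7 in IshaKD cells and 6 of 7 in mock cells. The exceptions were U5:14B, which had it in mock cells only, and U5:23D, which had no peak of any protein. U2 genes had Su(Hw) at 4 of 6 in IshaKD cells and 5 of 6 in mock cells, and CP190 at 4 of 6 in each. U4 genes had Su(Hw) and CP190 at 2 of 3 in each treatment, U4:38AB and U4:39B. U4:25F, 2116 bp from the glutamate receptor gene GluRIIB, had none within the window, with its nearest Su(Hw) peak 2600 bp away in IshaKD cells and 2668 bp in mock cells. U1 genes were split. U1:21D and U1:95Ca had Su(Hw) and CP190 in each treatment, while U1:82Eb, U1:95Cb and U1:95Cc had no peak in any of the 8 lists. How alike the copies of a class are was not examined, since no sequence was used. It is also unknown how the submitters placed reads that fit several copies. The part of read placement in which copies hold a peak was not tested.

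U7, a single gene, had Su(Hw), CP190 and Mod(mdg4) in each treatment. U11, inside the gene Fie, had CP190 alone in each treatment, with its nearest Su(Hw) peak 23683 bp away in IshaKD cells and 23540 bp in mock cells. U12, inside the fatty acid elongase gene Baldspot, U4atac, inside the cell junction gene cno, and U6atac, 60 bp from CG42820, had no peak in any list. Of the minor spliceosome RNAs, then, 1 gene of 4 was marked. With 4 genes, this count cannot be told apart from all genes, of which 44% in IshaKD cells and 38.9% in mock cells had no peak. The midpoint of the CP190 peak at U11 lay 458 bp from U11 and 22 bp from the end of Fie in IshaKD cells. In mock cells it lay 611 bp from U11 and 129 bp from that end. LU and its neighbour U5:23D, inside the fatty acid synthase gene FASN2, were also without peaks, as was 7SKb inside CG4374. In all, 11 of the 32 snRNA genes had no peak in any list and 21 had at least 1. By treatment, 40.6% of the snRNA genes had no peak in IshaKD cells and 34.4% in mock cells. These shares lay near those of all genes, 44% in IshaKD cells and 38.9% in mock cells.

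The 3 U6 genes, which form a 1234-bp cluster at 96A on 3R, shared 1 CP190 peak and had no other protein. It ran from 24556207 to 24557863 in IshaKD cells and from 24556073 to 24557995 in mock cells, and its midpoint lay 179 bp from the nearest U6 gene in IshaKD cells and 180 bp in mock cells. The nearest end of a protein-coding gene, that of REPTOR, a transcription factor gene of nutrient signalling, was 332 bp from the midpoint in IshaKD cells and 333 bp in mock cells. The nearest Su(Hw) peaks to the cluster stood 2802 bp from U6:96Aa in IshaKD cells and 2740 bp in mock cells. 7SKa had a CP190 peak from 7473364 to 7475394 on 3R in IshaKD cells, which covered the whole gene, and from 7473429 to 7474879 in mock cells, which covered part of it. It also had an Isha peak in mock cells, 202 bp away, from 7472885 to 7474350, and none in IshaKD cells. The midpoint of that Isha peak lay 935 bp from 7SKa and 163 bp from the nearest protein-coding end.

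In IshaKD cells the 14 genes with Su(Hw) were served by 12 peaks, and 12 of the genes lay wholly under their peak. In mock cells 16 genes were served by 12 peaks, and 14 lay wholly under theirs. The midpoint was nearer to an snRNA gene than to any end of a protein-coding gene for 11 of 12 Su(Hw) peaks in IshaKD cells and for 9 of 12 in mock cells. The median distance of the Su(Hw) midpoint was 123 bp to the snRNA gene and 520.5 bp to the protein-coding end in IshaKD cells. In mock cells it was 193.5 bp to the snRNA gene and 519 bp to the protein-coding end. CP190 midpoints were nearer to the snRNA gene for 13 of 15 peaks in IshaKD cells and for 11 of 15 in mock cells. Since only peaks within 500 bp of an snRNA gene enter these counts, short distances to the snRNA genes are partly set by that choice, and the counts are a description. The annotation used gives no strand, so upstream and downstream sides were not told apart.

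**Figure D3:**
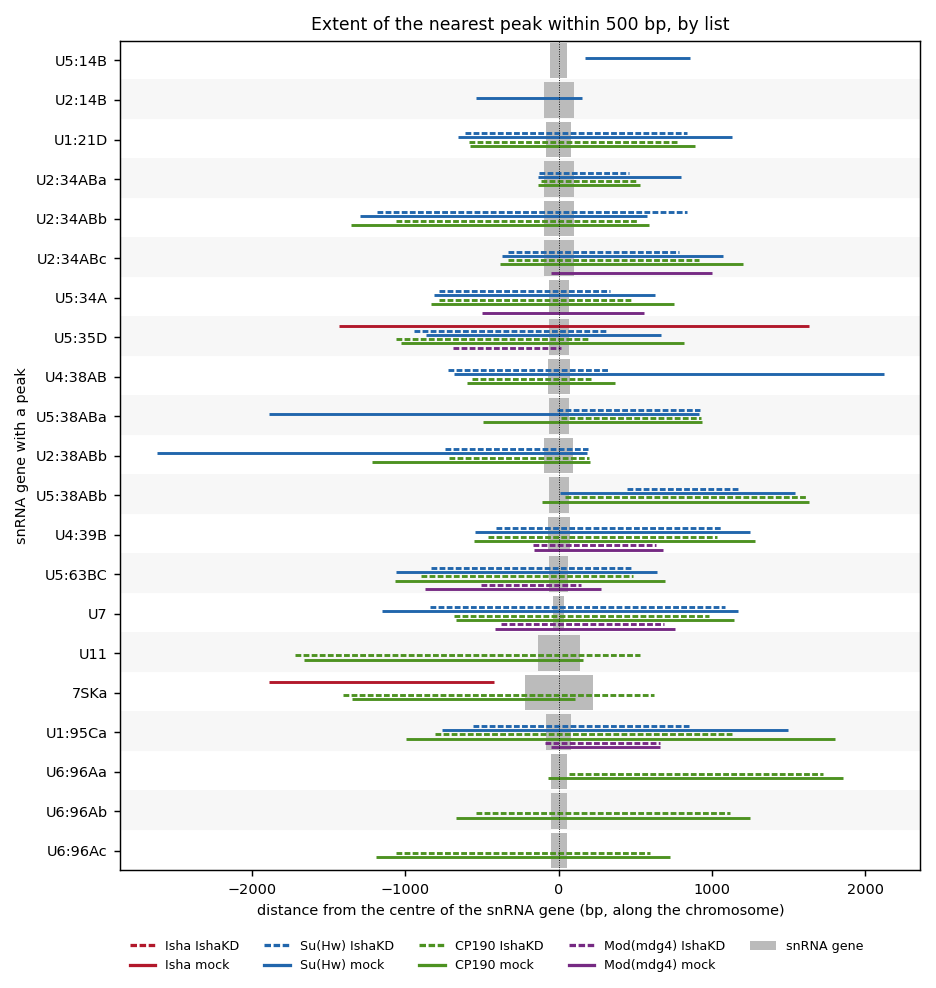
Extent of the nearest peak within 500 bp (lines, dashed for IshaKD and solid for mock) around each of the 21 marked snRNA genes (grey boxes), against the distance in bp from the centre of the gene along the chromosome. Su(Hw) and CP190 lines occur together at 14 genes in each treatment, and Mod(mdg4) lines join them at 5 in IshaKD cells and 6 in mock cells, while U11, 7SKa and the U6 genes have CP190 lines without Su(Hw), and the only Isha lines are mock lines at U5:35D and 7SKa.

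Some of the peaks lay far from any protein-coding end, that is, from the annotated start or end of a whole gene. Starts and ends of single transcripts inside a gene were not used. U7, a 71-bp gene in the long gene Eip63E on 3L, lay under Su(Hw), CP190 and Mod(mdg4) peaks in both treatments. Its Su(Hw) peak ran from 3593019 to 3594943 in IshaKD cells and from 3592704 to 3595029 in mock cells. The midpoint was 87 bp from the gene in IshaKD cells and on it (0 bp) in mock cells. The nearest protein-coding end was 16539 bp from the midpoint in IshaKD cells and 16654 bp in mock cells. The CP190 midpoint was 112 bp from U7 in IshaKD cells and 201 bp in mock cells, and the Mod(mdg4) midpoint 119 bp in IshaKD cells and 134 bp in mock cells. U2:34ABc and U5:34A, 286 bp apart, shared a Su(Hw) peak whose midpoint was 1541 bp from a protein-coding end in IshaKD cells and 1415 bp in mock cells.

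Besides U7, 3 genes carried Su(Hw), CP190 and Mod(mdg4) together in both treatments, each a single gene: U4:39B inside the autophagy gene Atg18b on 2L, U5:63BC 61 bp from the chitinase gene Cht7 on 3L, and U1:95Ca 299 bp from CG34355 on 3R. None of the 4 had an Isha peak within 500 bp in either treatment, and the nearest mock Isha peaks stood 2480 bp from U4:39B, 10970 bp from U5:63BC, 29594 bp from U1:95Ca and 47442 bp from U7. Over all genes, most of those with these 3 proteins lacked Isha too. In IshaKD cells 943 such genes lacked it and 84 had it, and in mock cells 817 lacked it and 288 had it. At U4:39B the Su(Hw) peak ran from 21214696 to 21216163 in IshaKD cells and from 21214559 to 21216353 in mock cells, and the Mod(mdg4) peak from 21214942 to 21215738 in IshaKD cells and from 21214947 to 21215787 in mock cells. At U5:63BC the Su(Hw) peak ran from 3090030 to 3091335 in IshaKD cells and from 3089799 to 3091504 in mock cells, and at U1:95Ca from 23858992 to 23860397 in IshaKD cells and from 23858789 to 23861041 in mock cells. The Mod(mdg4) peak at U1:95Ca kept its right edge at 23860210 in both treatments. U1:21D, 174 bp from the larval storage protein gene Lsp1beta, had Su(Hw) and CP190 in both treatments with no Mod(mdg4) peak nearer than 67640 bp in IshaKD cells and 67605 bp in mock cells.

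At genes with both Su(Hw) and CP190 the peak midpoints lay close together in IshaKD cells and at most genes in mock cells. The midpoints of the Su(Hw) and CP190 peaks differed by a median of 27.5 bp over 14 snRNA genes in IshaKD cells, with a largest difference of 116 bp at U5:35D, so that 14 of 14 genes were within 200 bp. In mock cells the median was 56 bp, and 10 of 14 genes were within 200 bp. The other 4 were U4:38AB (833 bp), U5:38ABa and U2:38ABb (709 bp each), which share 1 wide mock Su(Hw) peak, and U7 (229 bp). Over other genes of at most 300 bp with both proteins, the median was 85 bp (80 genes) in IshaKD cells and 129 bp (95 genes) in mock cells, with 76.2% within 200 bp in IshaKD cells and 69.5% in mock cells. The mock share of the snRNA genes was 71.4%. Mod(mdg4) midpoints differed from those of Su(Hw) by a median of 32 bp over 5 genes in IshaKD cells and 105.5 bp over 6 genes in mock cells, against 97 bp over 27 other short genes in IshaKD cells and 84 bp over 34 in mock cells. None of these differences between gene sets was tested.

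Neighbouring U2 and U5 genes occur as 4 close pairs, with 286 to 608 bp between the genes. Su(Hw) overlapped the stretch between the genes at 2 of the 4 pairs in IshaKD cells and at 3 of 4 in mock cells. At U5:14B and U2:14B on X, 554 bp apart, there was 1 mock Su(Hw) peak of 687 bp, from 16254230 to 16254916, with its midpoint between the genes and no mock CP190 peak nearer than 7894 bp. At U2:34ABc and U5:34A the Su(Hw) peak ran from 13244132 to 13245248 in IshaKD cells and from 13244096 to 13245537 in mock cells and covered both genes. At U5:38ABa and U2:38ABb, 571 bp apart, it ran from 19812000 to 19812930 in IshaKD cells and from 19810120 to 19812925 in mock cells. At the fourth pair, U2:38ABa and U5:38ABb, the Su(Hw) peak lay on the far side of U5:38ABb, from 19816923 to 19817659 in IshaKD cells and from 19816484 to 19818017 in mock cells. U2:38ABa was thus the gene of the cluster without a mark and the one nearest to the 500-bp limit from outside. Su(Hw) was 1117 bp from it in IshaKD cells and 678 bp in mock cells, and CP190 was 714 bp from it in IshaKD cells and 563 bp in mock cells. Nearest to the limit from inside were U5:38ABb, 382 bp from Su(Hw) in IshaKD cells, and 7SKa, 202 bp from Isha in mock cells.

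**Figure D4:**
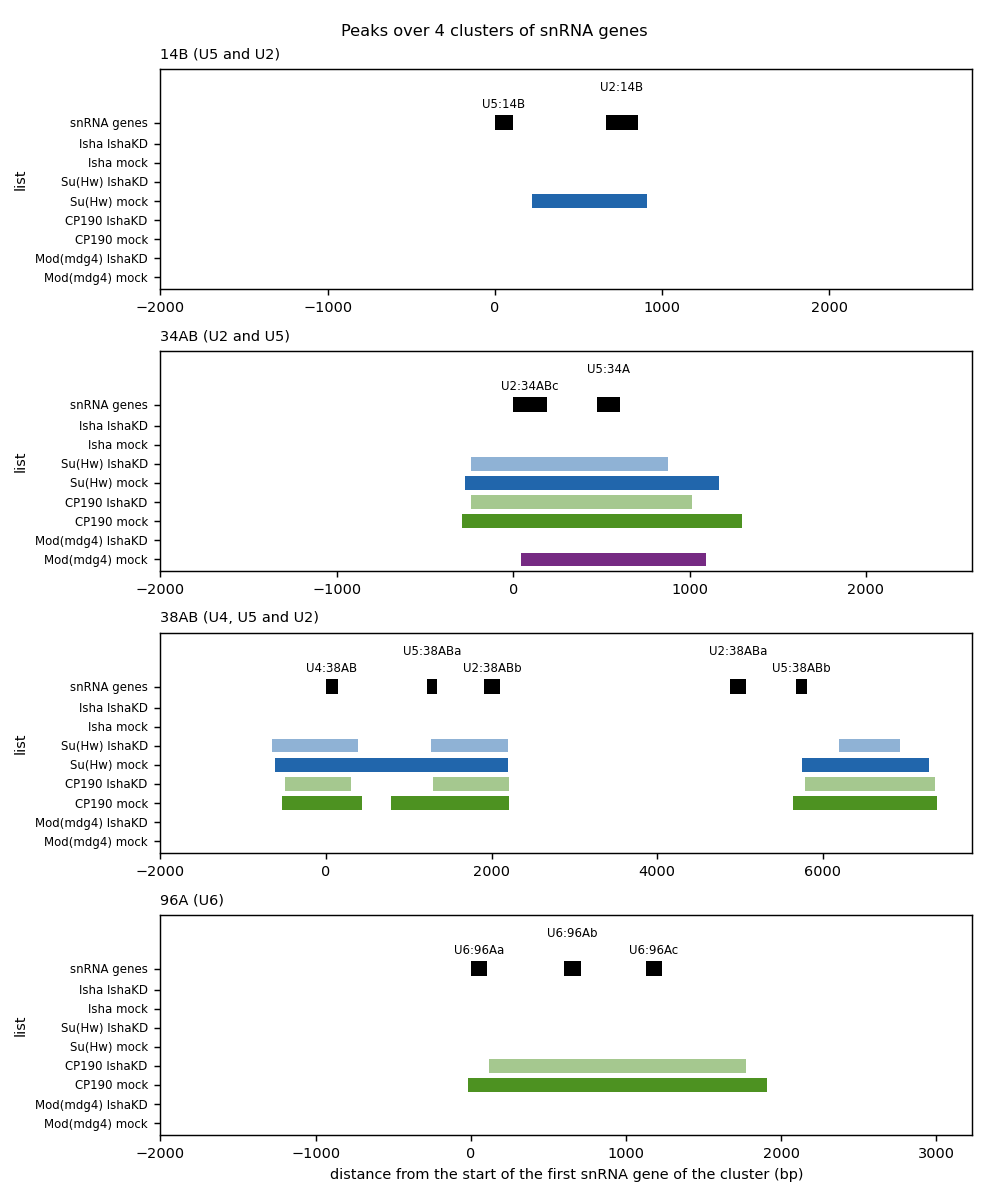
Peaks of each list (rows, pale bars for IshaKD above dark bars for mock) over 4 clusters of snRNA genes (black boxes), against the distance in bp from the start of the first gene of the cluster. The mock Su(Hw) bar between U5:14B and U2:14B has no IshaKD counterpart, the mock Su(Hw) bar over U4:38AB, U5:38ABa and U2:38ABb is parted into 2 bars in IshaKD cells, and the U6 cluster shows CP190 bars alone.

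After Isha knockdown the marks at the snRNA genes were mostly those of mock cells. The combination of proteins was identical in the 2 treatments at 26 of 32 genes and differed at 6. Of the 26, 15 had at least 1 peak and 11 had none in either treatment. The share of all genes with an identical combination was not counted, so these 26 have no background beside them. CP190 stayed at 19 of its 19 mock genes (over all genes 95.6% of mock CP190 genes were kept). Su(Hw) stayed at 14 of 16 (87.5%), against 87.4% of all genes with mock Su(Hw). Mod(mdg4) stayed at 4 of 6, against 80.5% of all genes with mock Mod(mdg4), and appeared at 1 gene without a mock peak (0.791% of all such genes). Isha was lost from both of its genes, and over all genes with mock Isha 72.9% were without it in IshaKD cells. No snRNA gene gained Isha, Su(Hw) or CP190, which appeared at 0.279%, 1.06% and 7.51% of all genes without the mock peak. The Mod(mdg4) counts rest on 5 peaks in each treatment, and the Isha counts on 2 mock peaks.

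The 6 genes whose marks differed lie at 4 places. At U5:14B and U2:14B the 687-bp Su(Hw) peak was absent from the IshaKD list, where the nearest Su(Hw) peak was 8520 bp from U5:14B. That mock peak was among the narrowest of its list, at width percentile 4.96. The nearest mock Isha peak stood 16214 bp from U2:14B. At U2:34ABc and U5:34A a 1053-bp mock Mod(mdg4) peak, from 13244412 to 13245464, was absent in IshaKD cells, where Su(Hw) and CP190 were still present. The nearest Isha peak to this pair was 20728 bp away in mock cells. At 7SKa the Isha peak was absent and CP190 stayed.

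U5:35D, a U5 gene 478 bp from the mitochondrial complex I gene ND-B17 on 2L, was the one snRNA gene under an Isha peak, and its marks differed for 2 proteins. The Isha peak, 3070 bp wide, ran from 15750183 to 15753252 in mock cells. In IshaKD cells the nearest Isha peak stood 12313 bp from U5:35D. A 706-bp Mod(mdg4) peak, from 15750928 to 15751633, was listed in IshaKD cells, while in mock cells the nearest stood 98103 bp from U5:35D. Su(Hw) was present throughout, from 15750675 to 15751924 in IshaKD cells and from 15750752 to 15752287 in mock cells. CP190 was too, from 15750558 to 15751808 in IshaKD cells and from 15750589 to 15752438 in mock cells. The Su(Hw) midpoint was 257 bp from U5:35D and 220 bp from the nearest protein-coding end in IshaKD cells, and 37 bp from U5:35D and 440 bp from that end in mock cells. U5:35D is 1 place, and no replicate value is at hand for it.

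Peaks that stayed were mostly narrower after knockdown, as they were over the whole lists. For Su(Hw), 10 of 11 shared peaks at snRNA genes were narrower in IshaKD cells, against 77.9% of all shared Su(Hw) peaks. The median ratio of IshaKD to mock width was 0.775 at snRNA genes and 0.885 over all. For CP190, 13 of 15 were narrower, against 87.5% over all, with median ratios of 0.821 at snRNA genes and 0.853 over all. For Mod(mdg4), 3 of 4 were narrower, against 81.3% over all. The smallest Su(Hw) ratio, 0.371, belongs to the 2806-bp mock peak over U4:38AB, U5:38ABa and U2:38ABb, which overlapped 2 IshaKD peaks and was paired with the one it shared most bases with. At U1:95Ca the Su(Hw) peak was 1406 bp wide in IshaKD cells and 2253 bp in mock cells. At U2:34ABb it was wider, 2021 bp in IshaKD cells and 1869 bp in mock cells. The CP190 peaks at U11 and 7SKa were wider too, with ratios of 1.24 and 1.4.

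In width the snRNA peaks ranged widely. The Su(Hw) peaks at snRNA genes had a median width of 1278 bp in IshaKD cells and 1744.5 bp in mock cells, against 1331 bp over the whole IshaKD list and 1511 bp over the mock list. Of 12 in each treatment, 5 in IshaKD cells and 9 in mock cells were wider than the median of their list. The CP190 peaks had a median of 1494 bp in IshaKD cells and 1761 bp in mock cells, against 1130 bp over the whole IshaKD list and 1410 bp over the mock list. Of 15 in each treatment, 12 in IshaKD cells and 13 in mock cells were wider than the median of their list. A wider peak reaches within 500 bp of a gene more readily, so these widths are partly set by how the peaks were chosen. Peaks chosen the same way at other genes were not measured. U2:34ABa held narrow ones. Its Su(Hw) peak was 594 bp wide in IshaKD cells (width percentile 3.81 of its list) and 931 bp in mock cells (18.3). Its CP190 peak was 619 bp wide in IshaKD cells (percentile 4.4) and 670 bp in mock cells (1.45).

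Isha, rare at the snRNA genes, was common at the protein-coding genes of the same pathway. Of 24 genes for snRNA transcription and 3′ end processing, 10 had an Isha peak in IshaKD cells (41.7%) and 23 in mock cells (95.8%), against 13.4% of all protein-coding genes in IshaKD cells and 47.6% in mock cells. These included the genes of the snRNA activator subunits Pbp95, Pbp49 and Pbp45, of the TATA-binding protein Tbp and of the polymerase III factors Brf and Bdp1, each with Isha in mock cells, and 14 Integrator subunit genes, of which IntS12 alone had none. Of 23 genes for snRNP proteins and their assembly, 7 had Isha in IshaKD cells (30.4%) and 22 in mock cells (95.7%). Among them were snf, snRNP-U1-70K and snRNP-U1-C, which encode U1 proteins, U2A, SmB and SmD1, and the exception was Gem3. Su(Hw) was rare at these genes, while 18.5% of all protein-coding genes had it in IshaKD cells and 20% in mock cells. It lay at Brf in both treatments and at IntS8 in mock cells, and at none of the 23 snRNP genes. CP190 lay at 20 of 24 and 22 of 23 genes in IshaKD cells and at 18 of 24 and 21 of 23 in mock cells, where 59.6% of all protein-coding genes had it in IshaKD cells and 57.8% in mock cells. The differences between these lists and the snRNA genes were not tested.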

How the data were processed

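For the reads of the 24 libraries, Picard 2.22.2, SAMtools 1.9, Bowtie2 2.4.1 and dm6 are named in the submitters' processing notes. Which peak caller and threshold were used, and how replicates became 1 list, is not given in the sources used here. Values that the authors deposited are peak starts and ends in bp, with no score, so depth is unknown. The list named SwHw was read as Su(Hw). Peaks on Y (1 to 5 per list) were left out, and coordinates are counted from 1. Gene positions were taken from RefSeq (assembly Release 6 plus ISO1 MT). A gene was marked when a peak overlapped its body or had an edge within 500 bp of it. The members and lists were chosen with earlier results of these data known. Of 48 pathway genes 47 were found by symbol or synonym; SmG matched 2 entries and was left out. All snRNA genes are described; other genes are the nearest protein-coding ones and the first 6 of each pathway list with mock Isha, while IntS8, IntS12 and Gem3 were named after their values were seen. Planned promoter motif searches were not run, since no sequence was used here. Distances were tested on simulated peaks. Python 3.11.15, NumPy 2.4.6, pandas 2.3.3, SciPy 1.17.1 and matplotlib 3.10.9 were used.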

Additional observations from a re-analysis of the deposited data

How the results depend on the processing

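Of 108 values of the 12 counts under other settings, 79 stayed within 1.5 times the reported count and 29 moved. Raw counts were compared, so a setting with fewer genes or clusters can move a value by its smaller total alone. Such settings gave most of the moved values: 6 with 1 count per cluster, 10 with the 7 genes and 9 with the 21 genes described below. Windows of 250 and 1000 bp moved none. The mock Isha count of 2 was 1 with peaks that overlap the gene, with midpoints within 500 bp, with the 28 spliceosomal genes alone and without peaks wider than 3000 bp. With 1 count per cluster (21 clusters), Su(Hw) lay at 9 in IshaKD cells and 10 in mock cells, 9 of them shared, and CP190 at 12 in each, 12 shared. Among the 7 genes over 500 bp from a protein-coding gene, Su(Hw) lay at 2 in IshaKD cells and 4 in mock cells (2 kept), CP190 at 3 in each (3 kept), Mod(mdg4) at 0 in IshaKD cells and 2 in mock cells (0 kept), and Isha at 1 in mock cells. Among the 21 genes over 500 bp from an end of one, a setting chosen after seeing the data, Su(Hw) lay at 8 in IshaKD cells and 10 in mock cells (8 kept), CP190 at 9 in each (9 kept), Mod(mdg4) at 2 in IshaKD cells and 4 in mock cells (2 kept), and Isha at 1 in mock cells. For the settings with 7 and 21 genes the share of all genes was not counted, so their counts have no background beside them. A gap of 1000 bp gave 26 clusters and one of 20000 bp gave 21. No paired analysis was possible because each list joins both replicates and no result comes from a test. For the same reason no replicate could be left out, and without a score no stricter threshold was run.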

Other observations

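Of 4 other short structural RNA genes, looked at after the values of the snRNA genes were seen, none had Su(Hw) or Mod(mdg4) within 500 bp in any list. Among all genes Su(Hw) lay at 17.1% in IshaKD cells and 18.6% in mock cells, and Mod(mdg4) at 5.84% in IshaKD cells and 6.33% in mock cells. An absence from 4 genes cannot be told from such shares. Both genes of the 7SL RNA, the RNA of the signal recognition particle (3R, 6820131 to 6820429 and 6822500 to 6822798), lay under a CP190 peak in each treatment and had no Isha peak within 500 bp. Over all genes CP190 lay at 53.3% in IshaKD cells and 51.9% in mock cells, and Isha at 11.3% in IshaKD cells and 41.2% in mock cells. The RNase P RNA gene had CP190 533 bp away in IshaKD cells and 483 bp away in mock cells, and an Isha peak 2778 bp away in IshaKD cells and 282 bp away in mock cells. The RNase MRP RNA gene had no peak within 500 bp in any list.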
